A study of Drosophila melanogaster with 20 samples.

Results

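Nmdmc, Shmt and pug encode 3 enzymes that load, interconvert and release one-carbon units carried on folate. They were taken as every probe set of the Affymetrix DrosGenome1 array whose annotation names 1 of these genes and no other, by symbol or older synonym (Shmt was CG3011). Each gene had 1 such probe set, giving 3 of the 14010 probe sets and 3 of the 10844 genes that a probe set names alone. The genes were chosen by values measured on these same arrays, since the study lists them among the genes raised by MnSOD at both ages once the effect of the inducing drug had been subtracted. Every change that enters that subtraction is therefore given below as a description of the members, with no test. The comparison between the MnSOD line and the control line, averaged over treatments, uses the same arrays but weights the groups so that its estimate is uncorrelated with the subtracted changes, and it was tested.

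Folate carries single carbon units between amino acids, nucleotides and methyl donors. Shmt, serine hydroxymethyltransferase, moves a carbon from serine to tetrahydrofolate and leaves glycine, and is the main entry of carbon into the pathway. Nmdmc, the NAD-dependent methylenetetrahydrofolate dehydrogenase and cyclohydrolase of mitochondria, oxidizes the loaded folate towards formyl-folate. The product of pug, pugilist, is the NADP-dependent trifunctional enzyme that joins the dehydrogenase, cyclohydrolase and synthetase steps, and pug mutants have altered eye colour. Formyl-folate is used in the synthesis of purines, and methyl-folate in that of methionine.

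The 20 arrays held RNA of whole adult males, pooled from 30 flies a sample, with 4 arrays in each of 5 groups. Flies of the MnSOD line carried 1 insertion of a doxycycline-inducible MnSOD transgene and the rtTA(3)E2 transactivator, which is expressed in all tissues and turns the transgene on only when doxycycline (DOX) is fed. They were sampled with DOX at day 73 and at day 83 (MnSOD +DOX) and without it at day 73 (MnSOD -DOX). Control flies carried the same transactivator in an Oregon R cross without the MnSOD transgene, and were sampled as control +DOX and control -DOX. The sample labels give day 73 for the controls, whereas the design text gives day 78. Replicates are called biological, with nothing further on how they were raised, so a p-value here covers no more than the spread among the arrays, which may be technical. In whole flies, fewer cells of a type and less RNA per cell cannot be told apart.

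Levels are the deposited RMA values on the log2 scale, on which a difference of 1 is a doubling. The transgene followed the labels in the MnSOD line: Sod2, which encodes MnSOD, averaged 12.49 ± 0.12 in MnSOD +DOX at day 73 and 12.24 ± 0.02 at day 83, against 8.42 ± 0.05 in MnSOD -DOX (SD, n = 4 each). In control flies it averaged 7.94 ± 0.24 with DOX and 7.56 ± 0.13 without, a direction opposite to the one the study describes for DOX. Pairs of arrays correlated at 0.957 to 0.997 over all probe sets. Control +DOX replicates 1 to 3 stood apart, with a mean bacterial spike-in signal of 7.98 to 8.41, against 9.36 to 10.24 on the other 17 arrays. The 18S rRNA probe sets averaged 8.84 and 5.44 on control +DOX replicates 1 and 3 and 3.34 to 3.94 on the other 18 arrays. The signal of control transcripts at the 3′ end minus the 5′ end averaged 1.36 ± 0.36 in control +DOX and 2.40 ± 0.65 in control -DOX. The changes of the members and the counts of the gene lists that rest on the control +DOX group are given below also without replicates 1 to 3, which leaves replicate 4 alone and assumes that it varies as the other groups do.

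By the labels, Nmdmc was high in all groups fed DOX, in both lines. Its level was 8.78, 8.71, 8.67 and 8.84 in MnSOD +DOX at day 73, and 8.51, 9.34, 9.06 and 8.44 in MnSOD +DOX at day 83, against 7.91, 8.19, 8.35 and 8.00 in MnSOD -DOX. All 8 arrays with the transgene on lay above the 4 without, although the day 83 arrays spread widely (SD 0.43, against 0.07 at day 73). In control flies it was 8.85, 9.36, 9.32 and 8.56 with DOX, against 7.59, 7.95, 7.76 and 8.06 without, again with no overlap. Group means ran from control +DOX (9.03) through MnSOD +DOX at day 83 (8.84) and day 73 (8.75) to MnSOD -DOX (8.11) and control -DOX (7.84). The ranges of the upper 3 groups overlapped, as did those of the lower 2, and the gap between MnSOD +DOX at day 73 and MnSOD -DOX was 0.63.

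Shmt, which feeds serine carbon into the pathway, was arranged differently, lower with DOX in the MnSOD line at day 73 and, as labelled, higher with DOX in control flies. Its level was 8.41, 8.46, 8.50 and 8.38 in MnSOD +DOX at day 73, and 8.51, 8.74, 8.62 and 8.60 at day 83, against 8.91, 8.75, 8.63 and 8.95 in MnSOD -DOX. The day 73 arrays lay wholly below those of MnSOD -DOX, and the day 83 arrays reached into their range. In control flies Shmt was 9.21, 9.48, 9.39 and 9.12 with DOX, against 8.26, 8.39, 8.50 and 8.43 without. Control +DOX was highest, 0.49 above MnSOD -DOX without overlap, and MnSOD +DOX at day 73 (mean 8.43) overlapped control -DOX (mean 8.39) at the bottom.

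pug followed Shmt more closely than Nmdmc. Its level was 8.38, 8.40, 8.47 and 8.48 in MnSOD +DOX at day 73, and 8.13, 8.40, 8.55 and 8.32 at day 83, against 8.61, 8.80, 8.77 and 8.95 in MnSOD -DOX. Both groups with the transgene on lay below MnSOD -DOX on every array. In control flies pug was 9.19, 9.43, 9.09 and 9.12 with DOX, against 7.89, 8.12, 8.23 and 8.22 without. The order of means was control +DOX (9.21), MnSOD -DOX (8.78), MnSOD +DOX at day 73 (8.43) and day 83 (8.35), and control -DOX (8.11). The upper 3 were separated from each other on every array, and each of the lower 3 overlapped its neighbour.

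**Figure D1:**
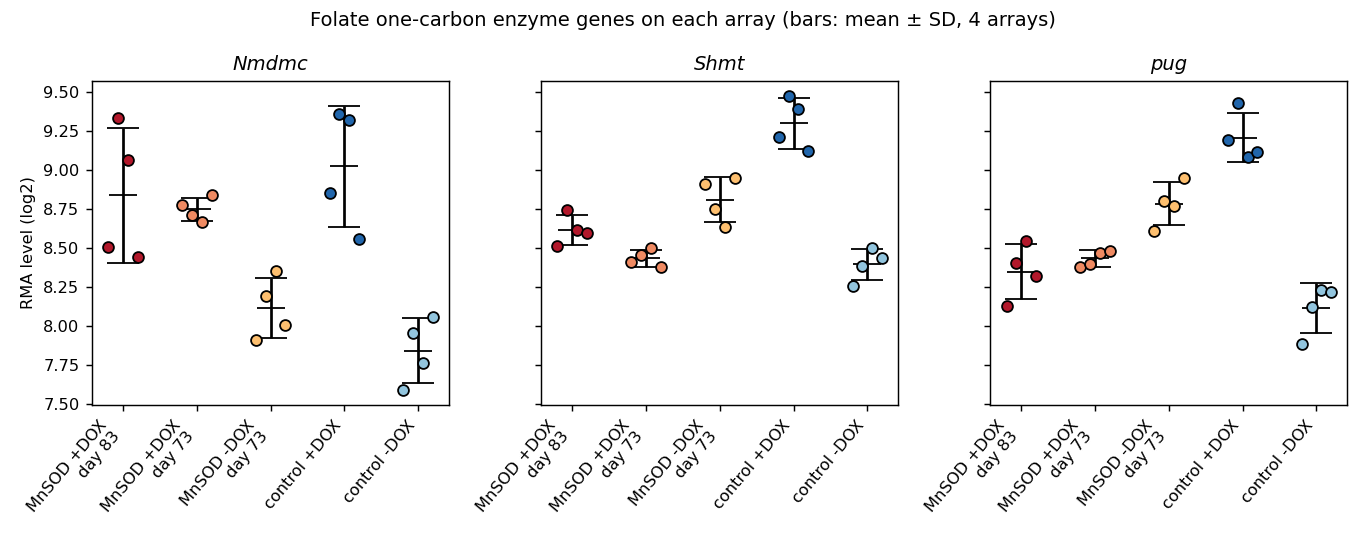
RMA level (log2) of Nmdmc, Shmt and pug on each of the 20 arrays by group, with the mean and SD of 4 arrays. Control +DOX is the highest group for all 3 genes and control -DOX the lowest, and the MnSOD groups with DOX lie above MnSOD -DOX for Nmdmc (8.75 and 8.84 against 8.11) and below it for pug (8.43 and 8.35 against 8.78).

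DOX in control flies, which carry no transgene to induce, came with higher levels of all 3 genes by the labels, and with larger changes than induction in the MnSOD line. As labelled, Nmdmc differed by 1.18 ± 0.18 (SE, control +DOX minus control -DOX, log2), pug by 1.09 ± 0.10 and Shmt by 0.91 ± 0.09, that is 2.27-fold, 2.13-fold and 1.88-fold. This direction opposes the study's, which lists all 3 genes as raised by MnSOD after correction. With a control change of this sign the corrected changes of all 3 were negative. Shmt and pug were lower with DOX in the MnSOD line before any subtraction, and only Nmdmc changed sign by it. The control change of AttD, an antimicrobial peptide gene, was 2.02 as labelled (7.61 with DOX and 5.59 without), and for immune genes too the study describes the other direction. The sources used here do not settle which naming of the control groups holds, so values are also given with control +DOX and control -DOX exchanged. All 4 control +DOX arrays lay above all 4 control -DOX arrays for the 3 genes. That was so for 11.7% of all probe sets, and the opposite for 15.4%. In limma, 12.1% of probe sets were called higher and 14.1% lower, a call being an adjusted p under 0.01 with a fold of at least 1.2.

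The control change was smaller for Nmdmc and Shmt when the arrays with low spike-in signal were left out, and for pug it moved by less than its SE. With control +DOX replicate 4 alone it was 0.72 for Nmdmc, 0.73 for Shmt and 1.00 for pug. With the spike-in signal of each array as a covariate it was 0.79 for Nmdmc, 0.70 for Shmt and 1.00 for pug. Replicate 4, whose spike-in signal (9.69) was within the range of the other groups, carried the lowest Nmdmc (8.56) and Shmt (9.12) of the control +DOX arrays, and was still above every control -DOX array. What part the spike-in signal had in the control change was not tested.

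**Figure D2:**
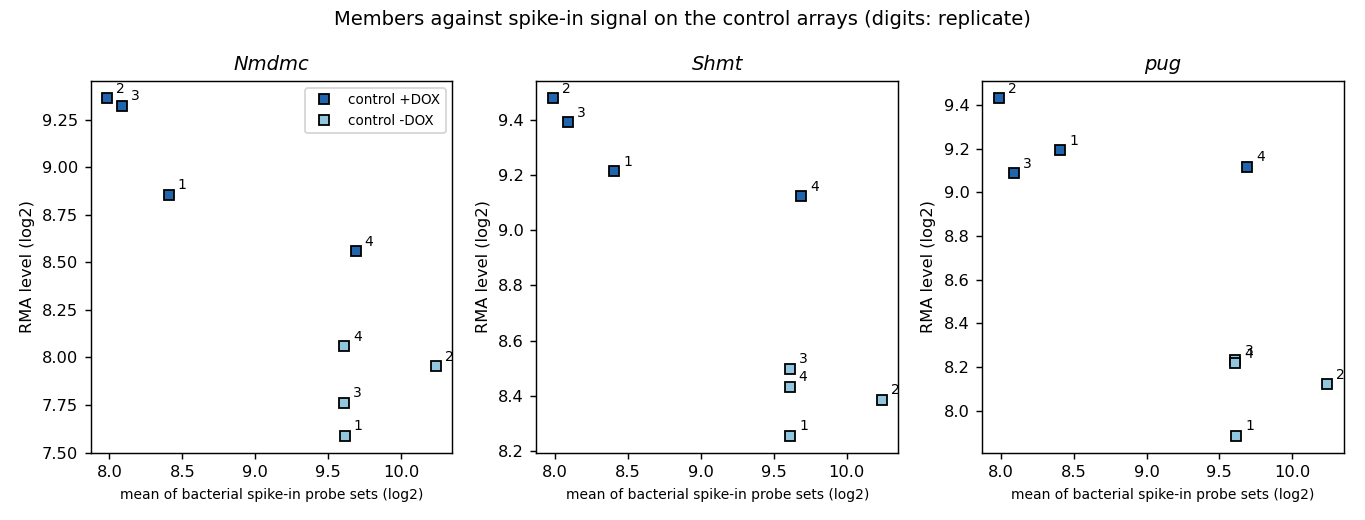
RMA level (log2) of each member against the mean of the bacterial spike-in probe sets (log2) on the 8 control arrays, numbered by replicate. Control +DOX replicates 1 to 3 lie to the left (7.98 to 8.41), and replicate 4 of that group, at 9.69, lies above the control -DOX arrays for all 3 genes.

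In the MnSOD line at day 73, induction came with higher Nmdmc and lower Shmt and pug. MnSOD +DOX minus MnSOD -DOX was 0.63 ± 0.18 for Nmdmc (1.55-fold), -0.38 ± 0.09 for Shmt (1.30-fold lower) and -0.35 ± 0.10 for pug (1.27-fold lower), each with its SE on the log2 scale. All 4 induced arrays lay outside the uninduced range for each gene, which held for 7.83% of probe sets upwards and 5.06% downwards. Calls were few, with 0.2% of probe sets higher and 0.464% lower. The whole array barely shifted, the median change over all probe sets being -0.0012.

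At equal survival, with MnSOD +DOX at day 83 set against MnSOD -DOX at day 73, the differences were 0.72 ± 0.18 for Nmdmc (1.65-fold), -0.43 ± 0.10 for pug (1.35-fold lower) and -0.19 ± 0.09 for Shmt (1.14-fold lower), the last with overlapping arrays. In this comparison 9.71% of probe sets were separated upwards and 17.2% downwards, and 3.01% were called higher and 6.26% lower. Both comparisons share the 4 MnSOD -DOX arrays. Between day 83 and day 73 with MnSOD on, the 3 genes differed by 0.09 ± 0.18 for Nmdmc, 0.18 ± 0.09 for Shmt and -0.08 ± 0.10 for pug (log2), against 0.949% of probe sets called higher and 2.74% lower.

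After subtraction of the control change, which is how the members had been selected, the 3 genes were all negative by the labels. At day 73 the corrected change was -0.55 ± 0.25 for Nmdmc, -1.28 ± 0.12 for Shmt and -1.44 ± 0.14 for pug (SE, log2). At day 83 it was -0.46 ± 0.25 for Nmdmc, -1.10 ± 0.12 for Shmt and -1.53 ± 0.14 for pug. With the control groups exchanged, Nmdmc was at 1.82 and 1.91 at day 73 and day 83, Shmt at 0.53 and 0.71, and pug at 0.74 and 0.66. With control +DOX replicate 4 alone, the corrected change of Nmdmc was -0.08 at day 73 and 0.0059 at day 83, while Shmt stayed at -1.11 and -0.92 and pug at -1.35 and -1.44. For Nmdmc the change with DOX was then 0.63 in the MnSOD line at day 73 and 0.72 in control flies. Over all probe sets, 2.22% were called higher and 3.78% lower at day 73, and 8.13% and 9.49% at day 83. No list of members just inside or outside the study's threshold was drawn, since the members were taken by name.

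**Figure D3:**
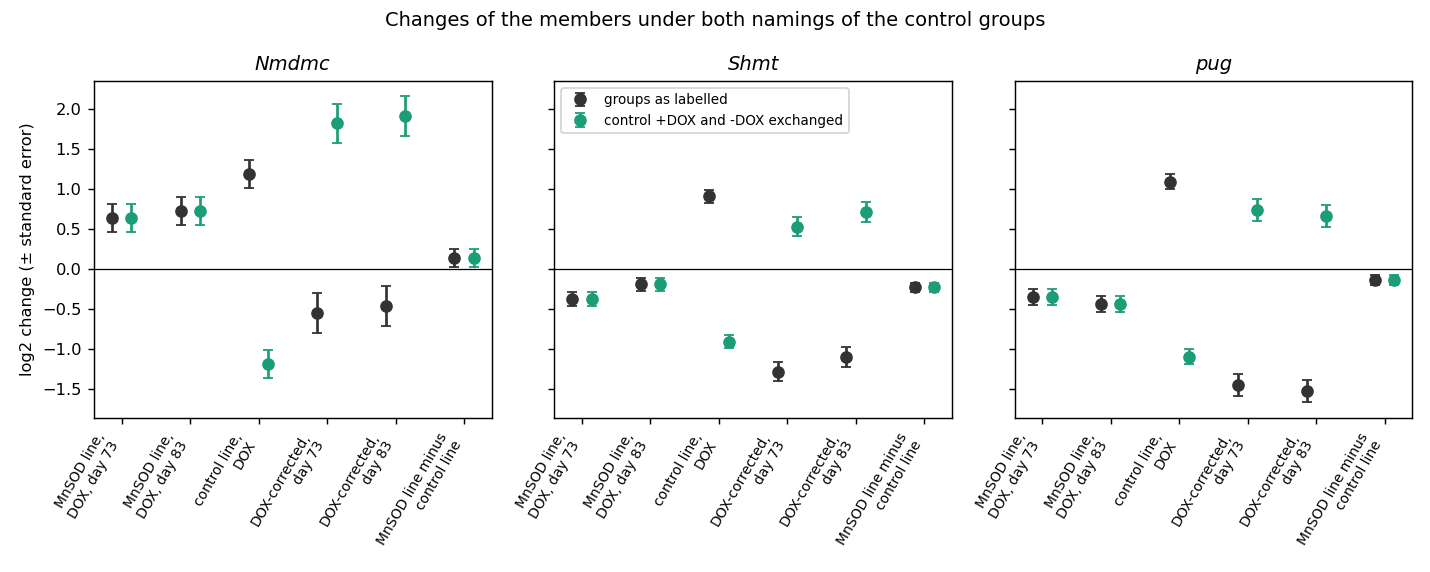
Log2 changes with their standard errors for each member in 6 comparisons, with the groups as labelled (black) and with control +DOX and -DOX exchanged (green). Direct changes in the MnSOD line and the comparison between lines do not move with the naming, whereas the corrected changes turn from negative to positive (pug at day 73, -1.44 as labelled and 0.74 exchanged).

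The comparison between lines is the same under both namings and was tested. It sets the mean of the 3 MnSOD groups against the mean of the 2 control groups, and so mixes treatments, 2 of 3 groups having been fed DOX in the MnSOD line and 1 of 2 in controls. Nmdmc averaged 8.57 in the MnSOD line and 8.43 in controls, a difference of 0.13 ± 0.11 (SE, 95% interval -0.10 to 0.37, limma, adjusted p = 0.458). pug averaged 8.52 and 8.66, a difference of -0.14 ± 0.06 (-0.27 to -0.01, adjusted p = 0.139). Shmt averaged 8.62 and 8.85, a difference of -0.23 ± 0.05 (-0.34 to -0.11, adjusted p = 0.00676), which passed the p threshold but at 1.17-fold not the fold threshold. None of the 3 members was called, against 1.35% of probe sets called higher and 3.59% lower. By the looser measure of an unadjusted p under 0.05, 2 of the 3 passed. The share of all probe sets that did so was not taken, so this count is a description only. The differences with control +DOX replicate 4 alone were 0.37 for Nmdmc, -0.14 for Shmt and -0.09 for pug. The adjusted p of Shmt was 0.335 in that fit and 0.183 with the spike-in covariate, and lay between 0.00169 and 0.0209 when each array was left out in turn.

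Without DOX the lines could be set side by side at what the labels give as the same day. MnSOD -DOX minus control -DOX was 0.27 ± 0.18 for Nmdmc, with overlapping arrays, 0.42 ± 0.09 for Shmt and 0.67 ± 0.10 for pug, with no overlap for Shmt and pug. These values rest on the naming of the controls, and with the groups exchanged they became -0.91 for Nmdmc, -0.49 for Shmt and -0.42 for pug. Of all probe sets, 3.21% were called higher and 3.33% lower. The share of all probe sets without overlap was not taken for this comparison, so the lack of overlap is a description only.

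Within groups, the 3 genes deviated together on the same arrays. After the mean of each group was removed, r over the 20 arrays was 0.45 for Nmdmc and Shmt, 0.52 for Nmdmc and pug, and 0.52 for Shmt and pug, as a description of arrays that share their RNA, normalization and scan. Over the 12 MnSOD arrays with group means left in, r was 0.64 for Shmt and pug but -0.55 for Nmdmc and Shmt and -0.52 for Nmdmc and pug, and these values are carried by the difference between +DOX and -DOX. The 8 control arrays fell into 2 separate clusters, in which all 3 genes were, by the labels, high with DOX and low without.

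**Figure D4:**
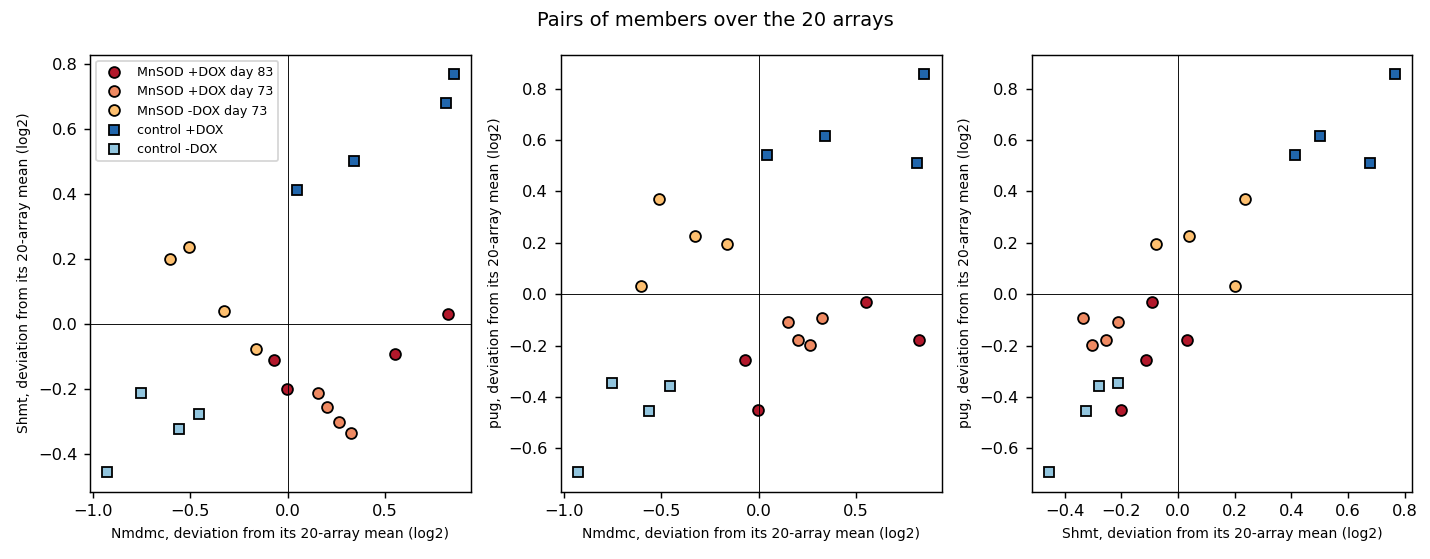
Each pair of members on the 20 arrays, as deviations from each gene's own mean over all arrays (log2). Shmt and pug line up over the 20 arrays (r = 0.91), less closely over the 12 MnSOD arrays (r = 0.64). With Nmdmc on the horizontal axis the MnSOD +DOX arrays fall to the right of MnSOD -DOX and mostly below it (r = -0.55 and -0.52 over the 12 MnSOD arrays).

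The probe sets most like each member were sought among those naming 1 gene, by Pearson's r over the 20 arrays. For pug they were Gart (r = 0.954), fbl (0.931), SREBP (0.930), CG14630 (0.930) and Adsl (0.929). Shmt was closest to Gart (0.927), AttD (0.916), pug (0.914), Pfas (0.913) and fbl (0.906). Gart, Pfas and Adsl encode enzymes of de novo purine synthesis, Gart being one that takes formyl groups from folate, and AttD encodes an attacin, an antimicrobial peptide. Nmdmc had none of these among its nearest, which were ALiX (0.897), Fem-1 (0.892), Nt5b (0.891), GstD1 (0.891), a glutathione S-transferase, and Cyp4p1 (0.878), a cytochrome P450. With group means removed, r was 0.67 to 0.82 for the 5 nearest Nmdmc, 0.27 to 0.79 for those nearest Shmt and 0.50 to 0.72 for those nearest pug.

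The rest of the folate pathway was followed through 13 further genes, each with a probe set of its own. In control flies 8 of the 13 were called higher with DOX as labelled, against 12.1% of all probe sets, with a median of 0.54 against -0.05. Lower calls, 2 of 13, were near the 14.1% of all probe sets. Gart was at 8.84, 8.83, 8.53 and 8.59 in control +DOX, against 7.13, 7.30, 7.31 and 7.24 in control -DOX, a difference of 1.45 (SE 0.13). The study had chosen Gart on a difference that holds this change, so the value is a description. Gnmt, glycine N-methyltransferase, a folate-binding enzyme that disposes of methyl groups, differed by 1.24, and CG3999, the P protein of the glycine cleavage system, by 1.10. The other cleavage proteins CG6415 and ppl differed by 0.54 and 0.62, Sardh, sarcosine dehydrogenase, by 0.56, CG8665, a formyl-folate dehydrogenase, by 0.56, and CG8026, a mitochondrial carrier of the folate transporter type, by 0.41. The lower genes were Ts, thymidylate synthase (-0.41), and Fpgs1, which adds glutamate to folate (-0.27), whose calls were lost in 3 and 5 of the 8 fits that left out 1 array. With control +DOX replicate 4 alone Gart (1.34) remained called and none of the other 9, and the same was so with the spike-in covariate. The changes with replicate 4 alone were 0.88 for CG3999 and 0.82 for Gnmt (adjusted p = 0.0197 and 0.0641, limma), 0.43 for CG6415, and 0.12 for CG8665. Gart, CG4716 and CG8665 appear in the study's own lists from these arrays, so their part in these counts is not independent of that choice.

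In the MnSOD line calls were few over the whole array at day 73 (0.2% of probe sets higher and 0.464% lower). Of the 13 genes 0 were called higher and 1 lower at day 73, with a median of -0.13. At an unadjusted p under 0.05 there were 8 of 13. The share of all probe sets at that level was not taken, so this count is a description only. The lower gene, Gnmt, was at 9.75, 9.60, 9.57 and 9.68 in MnSOD +DOX, against 10.61, 10.44, 10.44 and 10.55 in MnSOD -DOX, a difference of -0.86 (SE 0.14, limma, adjusted p = 0.00077). At day 83, 1 was called higher and 5 lower, against 3.01% and 6.26% of all probe sets, with a median of -0.16 against -0.04 over all probe sets. The lower genes were Gnmt (-0.92), Gart (-0.57), CG3999 (-0.49), CG6415 (-0.44) and Sardh (-0.32). The calls of CG3999 and Sardh were each lost in 7 of the 8 fits that left out 1 array, and with arrays centred on their medians or quantile normalization run again (adjusted p = 0.0181 to 0.0538, limma). The call of Gart was lost without replicate 4 of MnSOD -DOX or without replicate 1 or 4 of MnSOD +DOX at day 83. CG4716, annotated by the maker of the array as a methylenetetrahydrofolate dehydrogenase like Nmdmc and pug, was the 1 gene higher. It was at 10.27, 10.52, 10.44 and 10.27 in MnSOD +DOX at day 83, against 9.71, 10.10, 9.99 and 9.61 in MnSOD -DOX, a difference of 0.53 (SE 0.11). Its difference at day 73 was 0.50 and missed the call, and in control flies it was 0.14. Gart, CG4716 and CG8665 are in the study's own lists from these arrays, and these changes enter that choice. Their values here are descriptions, and their part in these counts is not independent of it. Between day 83 and day 73 with MnSOD on, 0 of the 13 were called by limma. There 3 had an unadjusted p under 0.05, again without the share of all probe sets.

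**Figure D5:**
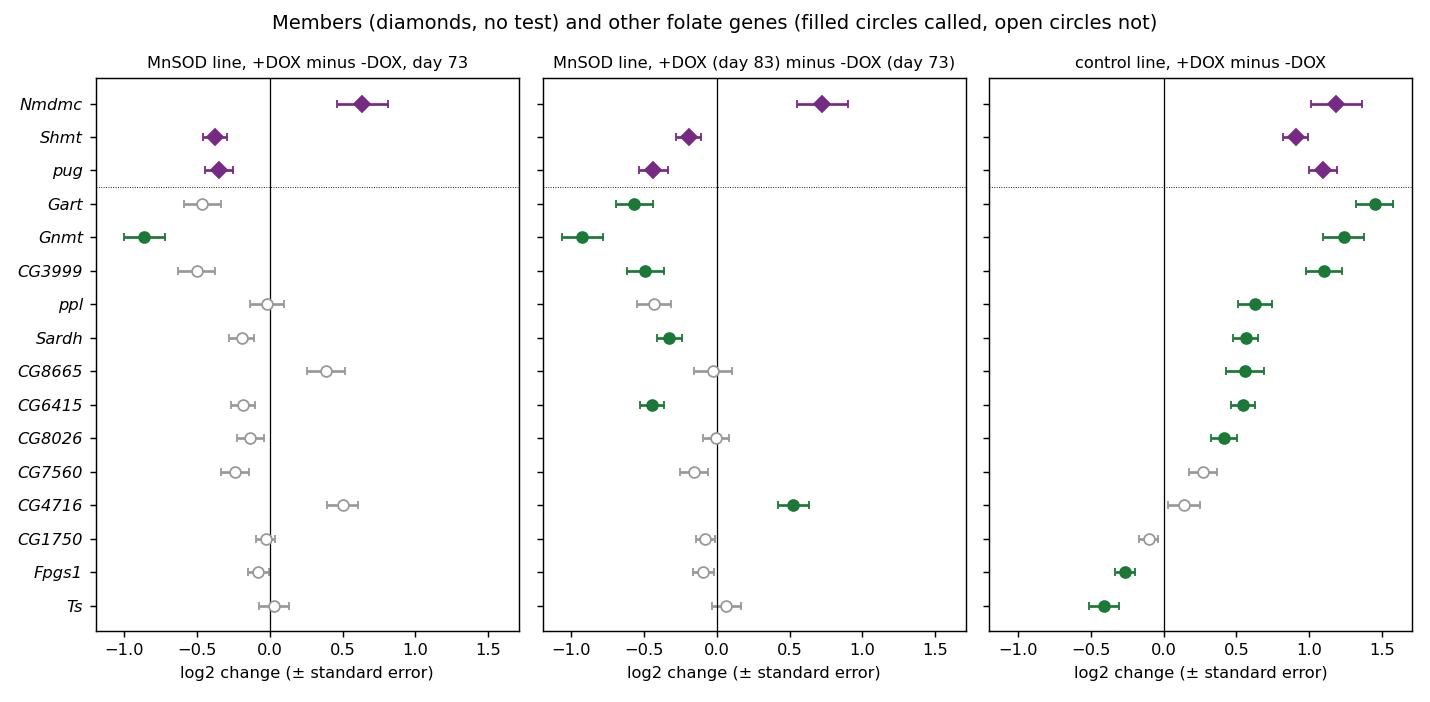
Log2 changes with standard errors of the 3 members (diamonds, not tested) and 13 other folate genes (circles, filled where called by limma), ordered by their change in control flies. With the controls as labelled, most genes lie right of 0 in control flies (Gart at 1.45) and left of it in the MnSOD line at day 83 (Gart at -0.57). Nmdmc lies right of 0 in all 3 panels and CG4716 does too, with a call at day 83 alone.

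After DOX correction 0 of the 13 folate genes were called higher and 6 lower at day 73, against 2.22% and 3.78% of all probe sets, and 0 and 6 at day 83, against 8.13% and 9.49%, with medians of -0.55 and -0.58 by the labels. Gart was among the 6 at both ages, and the study had chosen it on this same difference. Lower calls were 3 at day 73 and 5 at day 83 with control +DOX replicate 4 alone. With the control groups exchanged, 3 were called higher and 0 lower at day 73, and 2 and 0 at day 83. Gart, CG4716 and CG8665 of the 13 are in the study's own lists from these arrays. The counts after DOX correction are therefore not independent of that choice, under either naming. Between the lines 1 was called higher and 4 lower, against 1.35% and 3.59%, counts that the naming does not touch: MnSOD line minus control line was 0.34 for CG6415, -0.68 for Gnmt, -0.43 for CG4716, -0.41 for Gart and -0.37 for Sardh. With control +DOX replicate 4 alone CG6415 was the one gene still called.

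Genes on either side of the pathway were also called mainly higher with DOX in control flies as labelled. Of 9 measured genes of purine synthesis, 7 were called higher in control flies with DOX and 0 lower, against 12.1% and 14.1% of all probe sets, with a median of 0.85, led by Pfas (1.63), Gart (1.45), Prat2 (1.23) and Adsl (0.93). In the MnSOD line limma called 0 at day 73, where 4 had an unadjusted p under 0.05, and 3 were called lower at day 83, against 6.26%, Prat2 (-0.62), Gart (-0.57) and Adsl (-0.52). Of 11 genes that make serine, methionine and S-adenosylmethionine or break them down, 10 were called higher in control flies with DOX and 0 lower, against the same 12.1% and 14.1%, among them CG11899, phosphoserine aminotransferase (1.03), aay, phosphoserine phosphatase (1.02), CG6287, phosphoglycerate dehydrogenase (0.77), and CG10621, a homocysteine methyltransferase (0.69). In the MnSOD line limma called 0 at day 73, where 3 had an unadjusted p under 0.05. At day 83 Ahcy (-0.43) and Cbs (-0.32), on the way to cysteine, were called lower, against 6.26% of all probe sets. Between the lines 3 of the 9 purine genes were called lower in the MnSOD line, against 3.59% of all probe sets, Pfas (-0.58), Prat2 (-0.54) and Gart (-0.41). Of the 11 serine and methionine genes CG11899 (-0.89) and aay (-0.45) were called lower, against the same 3.59%. Cth, cystathionine gamma-lyase, was called higher (0.33), against 1.35%. Pfas, Gart, Paics, Adsl and Adss of the called purine genes, and CG6287 and CG11899 of the others, are in the study's own lists from these arrays, so these counts too are not independent of that choice. With control +DOX replicate 4 alone the counts in control flies were 3 of 9 for purine synthesis and 2 of 11 for serine and methionine, and between lines 0 of 9 and 2 of 11. Of the amino acid response list 3 of 5 genes were measured, and limma called 0 of them in any of the comparisons, with 0 or 1 at an unadjusted p under 0.05. The share of all probe sets at an unadjusted p under 0.05 was not taken, so the unadjusted counts of these lists are descriptions only.

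Sums of tissue markers differed between the same groups, with the controls as labelled. Levels were added before the log2 was taken, so the most abundant markers weigh most in a sum. The summed level of 8 testis markers, on the log2 scale, was 13.34 to 13.52 in MnSOD +DOX at day 73 and 13.57 to 13.72 at day 83, against 13.02 to 13.29 in MnSOD -DOX, and 13.34 to 13.64 in control +DOX, against 13.73 to 13.97 in control -DOX. With DOX it was higher in the MnSOD line and lower in control flies, opposite to pug. At day 83, 7 of the 8 were called higher, against 3.01% of all probe sets. In control flies 4 were called lower and 1 higher, against 14.1% and 12.1%. The 6 accessory gland markers summed to 10.32 to 10.62 in MnSOD +DOX at day 73 and 9.85 to 10.45 at day 83, against 10.70 to 10.94 in MnSOD -DOX, with 5 of 6 called lower at day 83. In control flies they summed to 10.56 to 10.64 with DOX and 10.51 to 10.79 without, with 2 called higher. The 5 fat body markers summed to 12.24 to 12.41 in MnSOD +DOX at day 73 and 12.29 to 12.38 at day 83, against 12.61 to 12.69 in MnSOD -DOX, and 12.54 to 12.69 in control +DOX, against 12.43 to 12.52 in control -DOX. With DOX this sum, like pug, was lower in the MnSOD line and higher in control flies, but 1 of the 5 markers was called in the MnSOD line at each age, Tsf1 (-0.59 at day 73), and in control flies the 1 called marker, Fbp1, was lower (-0.61). The median change of the 5 markers was -0.02 at day 73, -0.19 at day 83 and 0.19 in control flies. The 6 midgut proteases summed to 13.99 to 14.26 in MnSOD +DOX at day 73 and 13.83 to 14.12 at day 83, against 13.74 to 13.97 in MnSOD -DOX. Of these 6, 1 was called higher at day 73, and 1 higher and 2 lower at day 83. In control flies they summed to 13.60 to 13.68 with DOX, against 13.98 to 14.31 without, with 3 of 6 called lower. At day 73 this sum, like that of testis, was higher with DOX in the MnSOD line and lower with DOX in control flies. The median change of the 6 proteases was 0.04 at day 73, -0.19 at day 83 and -0.38 in control flies, so the higher sum was not shared by the list. Of 5 muscle markers 2 were called higher in control flies with DOX, and 3 were called higher in the MnSOD line than in controls. Female yolk protein genes summed to 7.90 to 8.35 over all arrays. For scale, the day 73 comparison in the MnSOD line called 0.2% of all probe sets higher and 0.464% lower. The day 83 comparison called 3.01% and 6.26%, the control comparison 12.1% and 14.1%, and that between lines 1.35% and 3.59%. The marker counts were not tested against these shares. The part of tissue make-up in the changes of the folate genes was not tested.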

How the data were processed

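The authors had processed the arrays by RMA (affy package, version not stated) and deposited log2 values in 1 table, whose columns were all used. Signals before RMA were not analysed here. Genes were assigned through the annotation of the platform and current identifiers: 12443 probe sets name 1 gene, 327 name several and were left unnamed, and 1240 name none.

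A linear model with a mean per group was fitted to the 20 arrays in limma 3.58.1 (R 4.3.3), with empirical Bayes moderation and Benjamini-Hochberg adjustment over 14010 probe sets within each comparison. Calls required an adjusted p below 0.01 together with a 1.2-fold difference. Replicate numbers did not pair the arrays. The fit was tested on simulated data.

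The members and gene lists were chosen with earlier results of these data known. Genes named are the members, Sod2, the folate list, up to 4 called genes a comparison of the purine and of the serine and methionine lists, and the 5 probe sets most like each member. Of several probe sets for a gene, that of highest mean was taken. Tsf1 and Fbp1 were named after their values were seen. Tables and figures were made in Python 3.11.15 with pandas 2.3.3, numpy 2.4.6 and matplotlib 3.10.9. Alternatives covered normalization, removal of the lowest 40% of probe sets, the variance model, array weights, a replicate block, the naming of the control groups, the spike-in signal, thresholds and arrays left out. The number of arrays limits the precision.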

Additional observations from a re-analysis of the deposited data

Results flagged for a closer look

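The response to DOX ran in opposite directions in the lines for Shmt at day 73 and for pug at both ages: every MnSOD +DOX array lay below every MnSOD -DOX array, and every control +DOX array above every control -DOX array. The corrected changes were -1.28 for Shmt at day 73, and -1.44 and -1.53 for pug at day 73 and day 83. The differences were not tested, since these genes were chosen on them, and their sign turns with the control groups exchanged.

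For other folate genes the difference between the lines in the response to DOX was tested in limma. At day 73 it was -2.10 for Gnmt, -1.61 for CG3999, -0.76 for Sardh, -0.73 for CG6415 and -0.55 for CG8026, with adjusted p of 9.78e-08 to 0.006. At day 83 it was -2.16 for Gnmt, -1.59 for CG3999, -1.05 for ppl, -0.98 for CG6415 and -0.89 for Sardh, with adjusted p of 5.27e-08 to 7.23e-05. Calls were lost with control +DOX replicate 4 alone for Sardh (adjusted p = 0.0566), CG6415 (0.0464) and CG8026 (0.333) at day 73 and for ppl (0.0393) at day 83. CG8026 was lost also with the spike-in covariate (0.129) and in 9 of the 16 fits that left out 1 array. For Gart, which the study chose on this same difference, it was -1.91 at day 73 and -2.02 at day 83, given as a description. With the control groups exchanged Gart was at 0.98 and 0.88, and none of the other genes named here was called.

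Single arrays stood apart in 3 of the 80 gene and group combinations examined, where chance gives about 1 in 20. CG8665 was 5.56 on control +DOX replicate 4 and 6.08 to 6.19 on the other 3 arrays of that group, the 3 with low spike-in signal. Gnmt was 9.08 on MnSOD +DOX day 83 replicate 4 and 9.71 to 9.83 on the others. CG8026 was 6.05 on MnSOD +DOX day 73 replicate 3 and 6.26 to 6.30 on the others.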

How the results depend on the processing

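The members' untested changes moved by less than the SD within groups in 195 of 225 recomputations and by more in the other 30, and by less in all 216 that left out 1 array. With the control groups exchanged, DOX in controls became -1.18, -0.91 and -1.09 for Nmdmc, Shmt and pug, the corrected changes 1.82, 0.53 and 0.74 at day 73 and 1.91, 0.71 and 0.66 at day 83, and the uninduced lines differed by -0.91 for Nmdmc, -0.49 for Shmt and -0.42 for pug. Without control +DOX replicates 1 to 3 the corrected change of Nmdmc at day 83 was 0.0059. Between lines, Shmt was called with array weights only (-0.28, adjusted p = 0.000276). Leaving out 1 array gave 0.06 to 0.19 for Nmdmc, -0.26 to -0.20 for Shmt and -0.18 to -0.10 for pug. With a replicate block the differences between lines were unchanged in size and the adjusted p was 0.00992 for Shmt. The block changed no call of a member, and the folate calls at day 83 became 4 in place of 6, without CG3999 and Sardh. The numbers did not pair the arrays, with correlations of same-numbered deviations from -0.39 to 0.36. For the 13 folate genes, the 1 call of the direct comparison at day 73 became 2 with quantile normalization run again or the spike-in covariate, 5 with array weights or only the arrays compared, 3 at the looser threshold, and 1 to 2 with 1 array left out. At day 83 leaving out 1 array gave 3 to 5 calls (3 without replicate 4 of MnSOD +DOX day 83 or of MnSOD -DOX). In controls the 10 calls became 1 with the spike-in covariate and 1 without control +DOX replicates 1 to 3, and 7 to 11 with 1 array left out. The 6 corrected calls became 3 (exchanged) and 3 (without those replicates) at day 73, with 5 to 9 for 1 array left out. At day 83 they became 2 (exchanged), 10 with array weights and 10 at the looser threshold, with 6 to 10 for 1 array left out (10 without control +DOX replicate 4). Between lines the 5 calls became 1 without control +DOX replicates 1 to 3. The causes were not tested.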
